A study of Mus musculus with 2 samples.

Results

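The 9 genes Dbp, Tef, Hlf, Nfil3, Bhlhe40, Bhlhe41, Ciart, Usp2 and Wee1 are outputs of the circadian clock, and their RNA was measured in lungs of C57BL/6J mice 8 weeks old. They were found by gene symbol among 43346 gene rows, with their 43 transcripts, and all 9 had rows in both libraries. The series holds 1 group, adult lung from mixed-sex littermates, as 2 libraries that the labels number as biological replicates 2 and 1. Both come from the same donor record and from separate tissue samples. Neither the number of animals pooled nor the time of day of collection is stated in the labels. No treatment or altered allele is named, so the comparison the design allows is replicate 2 against replicate 1, with no test between conditions and no p-value. Dbp, Tef, Hlf, Nfil3, Bhlhe40 and Bhlhe41 encode DNA-binding transcription factors, Ciart encodes a repressor that binds a clock protein, and Usp2 and Wee1 encode enzymes.

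The circadian clock is a loop in which CLOCK and BMAL1 bind E-box DNA and switch on genes, among them the Per and Cry genes, whose proteins later repress CLOCK and BMAL1. The same E-box drive, and the orphan receptors REV-ERB and ROR, set daily rhythms in a layer of output genes. DBP, TEF and HLF are PAR bZIP activators that bind D-box DNA, and NFIL3 is a bZIP repressor that binds the same DNA. In mouse liver and kidney the PAR bZIP factors drive genes for the handling of drugs and haem, and in many organs, lung included, Dbp RNA is among the most strongly rhythmic.

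Across the whole table, replicate 2 held 44182836 gene counts and replicate 1 held 48234745. The defining lung markers Sftpc, Scgb1a1, Ager, Cldn5, Cdh5 and Inmt summed to 159316 TPM (the authors' measure of a transcript's share of all RNA molecules, corrected for length) in replicate 2 and 149966 TPM in replicate 1, and none of the 6 was 2-fold apart. Genes of other tissues did differ. The 6 squamous epithelium markers summed to 1.76 TPM in replicate 2 and 4168.91 TPM in replicate 1, with Krtdap at 0 in replicate 2. The 6 skeletal muscle markers summed to 56.89 TPM in replicate 2 and 2807.49 TPM in replicate 1, with Myh8 and Tnnc2 at 0 in replicate 2, and the 2 brown fat markers to 5.42 and 185.01 TPM. The sums ran the other way for the 4 erythroid markers, at 61267.7 TPM in replicate 2 and 21922.3 TPM in replicate 1, and for the 4 intestine and pancreas markers, at 172.66 TPM in replicate 2 and 3.62 TPM in replicate 1, with Sycn at 0 in replicate 1. The part of these tissues in any difference given here was not tested. In a piece of whole tissue, fewer cells of a type and less RNA per cell cannot be told apart.

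All 9 clock output genes reached 1 TPM in each library, and 3 of the 9 were 2-fold or more higher in replicate 2. These were Dbp, Wee1 and Bhlhe41. None was 2-fold higher in replicate 1. The background was the 14708 genes whose mean count reached 50. Replicate 2 was at least 2-fold higher for 332 of them (2.26%), and replicate 1 for 672 (4.57%). The ratio, here and below, is the count of replicate 2 over that of replicate 1 after TMM scaling, a factor per library that centres most genes on no change, and its 95% interval is exact and covers counting error only. It was above 1 for 8 of the 9 genes, Nfil3 being the exception, and for 49.7% of the background genes. Bhlhe40 counts among the 8 but fell to the other side of 1, at 0.978, when plain library totals were used. The median log2 ratio was 0.59 over the 9 genes and -0.0023 over the background. Under library totals the split of 2-fold background genes was 240 higher in replicate 2 and 838 higher in replicate 1, and under TPM it was 232 and 981.

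**Figure D1:**
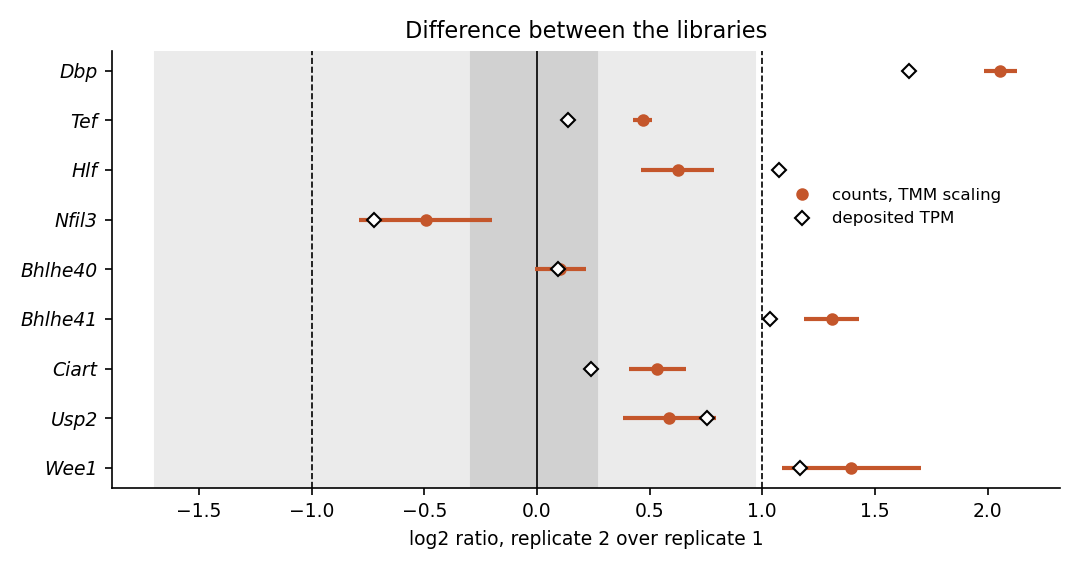
Log2 ratio of replicate 2 over replicate 1 for the 9 genes. Filled points are TMM-scaled counts with 95% exact counting intervals, open diamonds are the ratios of deposited TPM, dashed lines mark 2-fold, and the dark and light grey bands hold the middle 50% and 95% of the 14708 background genes. Dbp, Bhlhe41 and Wee1 lie beyond the upper 2-fold line, Nfil3 lies left of 0, and the diamond of Hlf, but not its filled point, passes 2-fold.

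The levels spanned more than an order of magnitude. By mean TPM the genes ran Tef, Dbp, Ciart, Bhlhe40, Hlf, Bhlhe41, Usp2, Wee1 and Nfil3, and the highest was 52.5 times the lowest in replicate 2 and 40.9 times in replicate 1. Neighbours in this order overlapped over the libraries in 4 places. These were Tef with Dbp, Hlf with Bhlhe41, Bhlhe41 with Usp2, and Wee1 with Nfil3. Dbp ranked first of the 9 in replicate 2 and second in replicate 1, where Tef ranked first. The authors' intervals around the TPM values overlapped between the libraries for Bhlhe40 and not for the other 8 genes. Among these 8 was Tef, at a TPM ratio of 1.10. The share of all genes with intervals apart was not counted, so the 8 show nothing particular to these genes. Each interval belongs to 1 library, so it holds no variation between tissue samples.

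**Figure D2:**
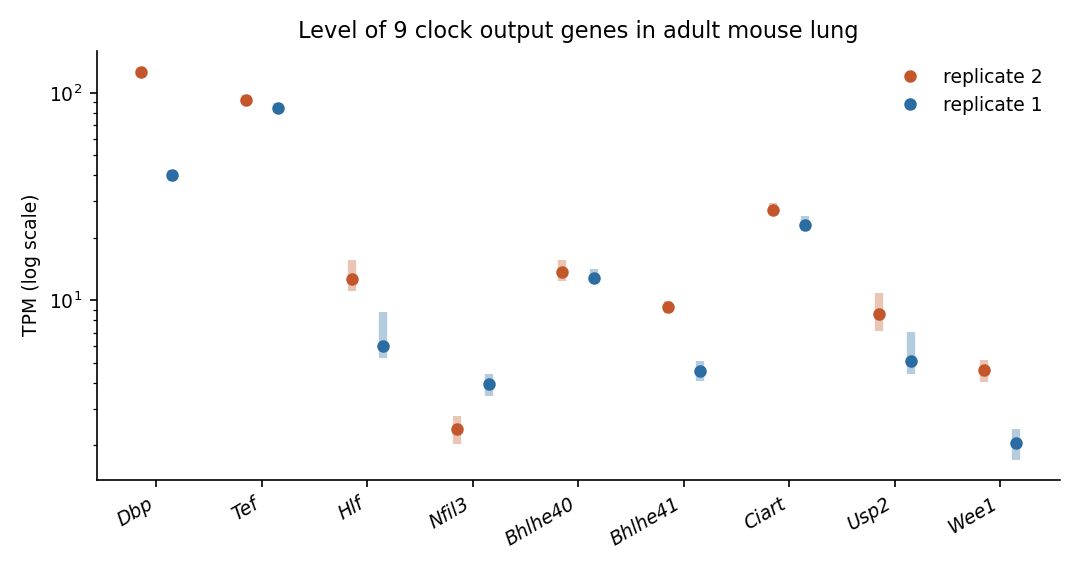
Deposited TPM of the 9 genes on a log axis, replicate 2 at left and replicate 1 at right within each gene. Bars are the authors' intervals, which for the high genes are smaller than the points. Dbp stands at 126.11 TPM in replicate 2 and 40.09 TPM in replicate 1, the widest gap, and Bhlhe40 at 13.68 and 12.84 TPM, the narrowest by ratio.

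Dbp (ENSMUSG00000059824.6, chr7:45705088-45710203, plus strand, GRCm38), the albumin D-site binding protein, had the largest ratio. It had 6847 counts and 126.11 TPM in replicate 2, against 1973 counts and 40.09 TPM in replicate 1, a mean of 83.1 ± 60.8 TPM (SD, n = 2). The ratio was 4.16 (95% interval 3.96 to 4.38), higher than that of 99.6% of the background genes. By deposited TPM it was 3.15. Its level stood at the 92.5th percentile of the 13855 genes that reached 1 TPM in each library in replicate 2 and at the 74.7th in replicate 1.

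Tef (ENSMUSG00000022389.10, chr15:81802421-81826863, plus strand), the thyrotroph embryonic factor, was high in both libraries and under 2-fold apart. It had 10294 counts and 92.71 TPM in replicate 2, against 8916 counts and 84.2 TPM in replicate 1, a mean of 88.5 ± 6.02 TPM (SD, n = 2). The count ratio was 1.38 (1.34 to 1.42), higher than that of 87.4% of the background genes, and the TPM ratio was 1.10. Hlf (ENSMUSG00000003949.12, chr11:90336536-90390895, minus strand), the hepatic leukemia factor, was the least abundant of the PAR bZIP genes. It had 702 counts and 12.62 TPM in replicate 2, against 546 counts and 6.0 TPM in replicate 1, a mean of 9.31 ± 4.68 TPM. Its count ratio of 1.54 (1.38 to 1.73) was under 2-fold, while its TPM ratio of 2.10 was over it.

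The 3 activators together held 231.44 TPM in replicate 2 and 130.29 TPM in replicate 1. Dbp made up 54.5% of that sum in replicate 2 and 30.8% in replicate 1, and Tef made up 40.1% in replicate 2 and 64.6% in replicate 1. Hlf made up 5.45% in replicate 2 and 4.61% in replicate 1. The most abundant PAR bZIP RNA was therefore Dbp in replicate 2 and Tef in replicate 1.

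Nfil3 (ENSMUSG00000056749.7, chr13:52967209-52981073, minus strand), the D-box repressor also called E4BP4, was the lowest of the 9 genes by mean TPM and in replicate 2, Wee1 being lower in replicate 1, and it was the one with the opposite sign. It had 154 counts and 2.4 TPM in replicate 2, against 260 counts and 3.96 TPM in replicate 1, a mean of 3.18 ± 1.10 TPM (SD, n = 2). Replicate 1 was 1.41-fold higher (1.15 to 1.73), a difference under 2-fold. The summed TPM of the 3 activators over that of Nfil3 was 96.4 in replicate 2 and 32.9 in replicate 1.

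Bhlhe40 and Bhlhe41, the E-box repressors DEC1 and DEC2 that can displace CLOCK and BMAL1, differed from each other. Bhlhe40 (ENSMUSG00000030103.7, chr6:108660629-108666925, plus strand) had 1206 counts and 13.68 TPM in replicate 2, against 1346 counts and 12.84 TPM in replicate 1, a mean of 13.3 ± 0.594 TPM. Its ratio of 1.07 had an interval that included 1 (0.993 to 1.16). Bhlhe41 (ENSMUSG00000030256.7, chr6:145858243-145865558, minus strand) had 1690 counts and 9.33 TPM in replicate 2, against 818 counts and 4.56 TPM in replicate 1, a mean of 6.95 ± 3.37 TPM. Its ratio was 2.48 (2.28 to 2.70), and 2.05 by TPM. Bhlhe40 RNA was 1.47 times that of Bhlhe41 in replicate 2 and 2.82 times in replicate 1, on the TPM scale.

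Ciart (ENSMUSG00000038550.6, chr3:95878503-95882251, minus strand) encodes CHRONO, a repressor that binds BMAL1 in the mouse. It had 1141 counts and 27.28 TPM in replicate 2, against 944 counts and 23.12 TPM in replicate 1, a mean of 25.2 ± 2.94 TPM. The ratio was 1.45 (1.33 to 1.58) by counts and 1.18 by TPM, and only Tef and Dbp were higher among the 9 genes in both libraries.

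Both enzyme genes were low and higher in replicate 2. Usp2 (ENSMUSG00000032010.10, chr9:44067021-44095627, plus strand), a deubiquitinase that acts on clock proteins in the mouse, had 441 counts and 8.64 TPM in replicate 2, against 352 counts and 5.12 TPM in replicate 1, a mean of 6.88 ± 2.49 TPM. Its ratio was 1.5 (1.30 to 1.73). Wee1 (ENSMUSG00000031016.8, chr7:110122046-110143286, plus strand), the kinase that holds back CDK1 before mitosis and is driven by E-boxes in mouse liver, had 283 counts and 4.63 TPM in replicate 2, against 129 counts and 2.06 TPM in replicate 1, a mean of 3.35 ± 1.82 TPM. Its ratio was 2.63 (2.13 to 3.26). The Wee1 transcript used for counting was 1941 bases long, against 3419 bases in the later GENCODE annotation, so reads from the missing 1478 bases did not enter its count.

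Of the 43 transcripts, 27 held at least 5% of their gene's TPM in a library and 9 had no counts in either. The most abundant transcript by TPM share was another one in replicate 2 than in replicate 1 for 3 of the 7 genes with several transcripts, Tef, Hlf and Usp2, and by counts for Tef alone. Over all 9846 genes for which this could be asked, 15.2% switched by TPM share and 10.3% by counts. Transcript values divide reads that several transcripts share, so they rest on the authors' estimate, and the exact counting intervals given for them leave the error of that division out.

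**Figure D3:**
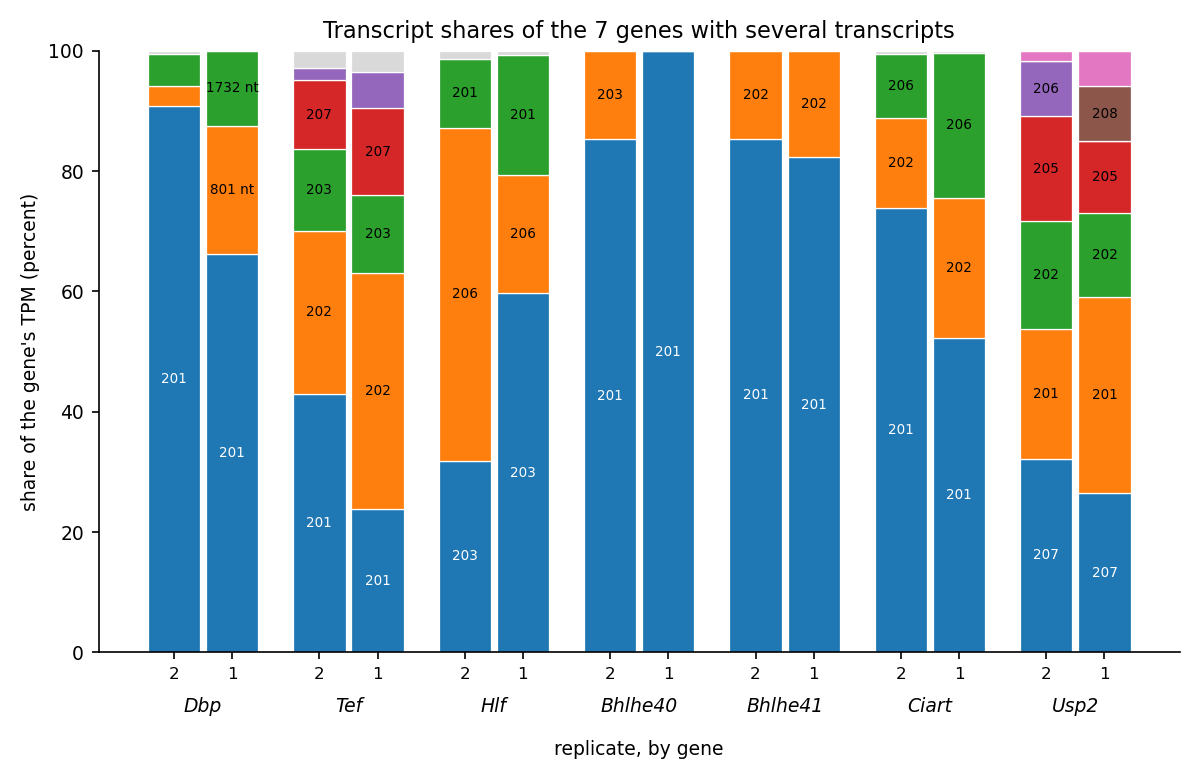
Share of each gene's TPM on its transcripts, replicate 2 at left and replicate 1 at right, for the 7 genes with several transcripts. Numbers in the bars are GENCODE transcript suffixes, or the length of Dbp transcripts that the later annotation leaves out, grey tops are transcripts under 5% in both libraries, and coloured parts without a number are under 9% in that library. Tef-201 holds 43.0% in replicate 2 and 23.9% in replicate 1, and Dbp-201 holds 90.9% and 66.3%.

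Tef was split by its transcription starts. Tef-202 begins at the first annotated start and Tef-201 begins 8993 bases downstream, and both join the same later exons. Tef-201 had 5441 counts and 39.87 TPM in replicate 2, against 2808 counts and 20.09 TPM in replicate 1, a ratio of 2.32 (2.22 to 2.43) by counts and just under 2-fold by TPM. Tef-202 had 3712 counts and 25.12 TPM in replicate 2, against 4986 counts and 32.94 TPM in replicate 1, a ratio of 0.892 (0.855 to 0.931). The authors' TPM intervals did not overlap between the libraries for either transcript, running 37.4 to 41.7 TPM in replicate 2 and 17.6 to 22.0 TPM in replicate 1 for Tef-201. So the modest ratio of the whole gene held a ratio of about 2 at the downstream start beside a small opposite one at the upstream start. With starts within 500 bases joined, the ratios were 2.29 downstream and 0.954 upstream. Tef-203, an upstream form annotated as a retained intron and not as protein coding, had 890 counts in replicate 2 against 795 in replicate 1. Its ratio was 1.34 (1.22 to 1.48). Tef-207, also annotated as a retained intron, had 217 counts in replicate 2 and 256 in replicate 1, and Tef-206 had 18 and 48. Tef forms not annotated as protein coding held 27.8% of Tef TPM in replicate 2 and 31.1% in replicate 1. Tef-201 and Tef-202 encode proteins with different first residues and the same end. Tef-201 has 903 coding bases, 150 of them its own, and Tef-202 has 855, 102 of them its own, with 753 shared. Their first 60 coding bases, from GENCODE M21 transcripts, are shown because they tell the 2 forms apart, with the start codon in capitals.
Tef-201: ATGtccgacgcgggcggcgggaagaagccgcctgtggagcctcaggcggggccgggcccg
Tef-202: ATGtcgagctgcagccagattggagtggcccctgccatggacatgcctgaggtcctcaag

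Usp2 also has starts far apart, with lower counts. Usp2-201 and Usp2-208 start at the head of the gene and encode the same long protein, while Usp2-202 and Usp2-206 start 17918 bases further on. The internal start had 137 counts in replicate 2 against 48 in replicate 1, a ratio of 3.42 (2.45 to 4.86). The first start had 239 counts in replicate 2 against 257 in replicate 1, a ratio of 1.11 (0.931 to 1.33) by counts, with 1.85 TPM in replicate 2 and 2.14 TPM in replicate 1. Within the first start, Usp2-201 alone had 239 counts in replicate 2 against 220 in replicate 1, a ratio of 1.30 (1.08 to 1.57), and Usp2-208 was at 0 counts in replicate 2 and at 36 in replicate 1. Within the internal start, Usp2-206 was at 36 counts in replicate 2 and at 0 in replicate 1, while Usp2-202 alone had 101 counts in replicate 2 against 48 in replicate 1, a ratio of 2.52 (1.77 to 3.63). The authors' TPM intervals overlapped between the libraries for Usp2-202 and for Usp2-206, and the difference between the starts was not tested. Of the other transcripts, Usp2-207 had 44 counts in replicate 2 and 22 in replicate 1, Usp2-203 had 10 and 21, and Usp2-205 had 11 and 5. Usp2-201 has 1857 coding bases and Usp2-202 has 1188, of which the last 1042 are shared, so the long and short enzymes differ at their beginnings. These beginnings are shown for that reason, with the start codon in capitals.
Usp2-201: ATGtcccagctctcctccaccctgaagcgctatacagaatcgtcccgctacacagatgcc
Usp2-202: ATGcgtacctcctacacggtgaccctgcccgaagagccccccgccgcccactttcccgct

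**Figure D4:**
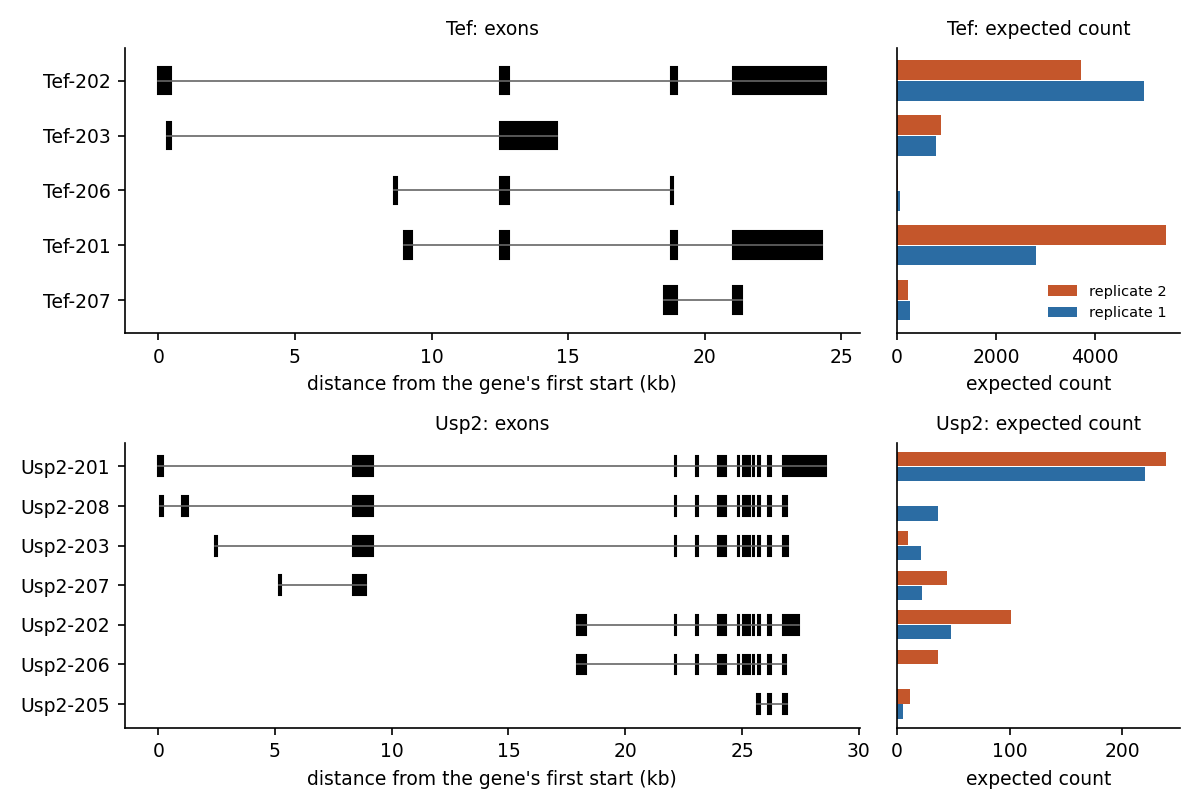
Exons of the Tef and Usp2 transcripts with at least 5% of their gene's TPM in a library, drawn by distance from the gene's first start, beside the expected counts of replicate 2 (upper bar) and replicate 1 (lower bar). The bar of Tef-201 is longer in replicate 2 (5441 against 2808) and that of Tef-202 is longer in replicate 1 (3712 in replicate 2 against 4986).

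The other genes kept their main transcript by counts. Dbp-201 had 6381 counts in replicate 2 against 1516 in replicate 1, a ratio of 5.04 (4.77 to 5.34) that was higher than that of the whole gene. The remaining 4 Dbp transcripts are missing from the later annotation and held 9.15% of Dbp TPM in replicate 2 and 33.7% in replicate 1. Of these, the transcript of 801 bases had 86 counts in replicate 2 and 182 in replicate 1, and that of 1732 bases had 364 and 275. Ciart-201 had 844 counts in replicate 2 and 518 in replicate 1, with 73.8% and 52.2% of Ciart TPM. Ciart-202, which has the same coding sequence, had 250 counts in replicate 2 and 337 in replicate 1, and the shorter Ciart-206 had 44 and 88.

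The larger ratio of Hlf by TPM went with 1 short transcript. Hlf-206, an incomplete model of 619 bases, had 101 counts in replicate 2 and 17 in replicate 1, which came to 55.3% of Hlf TPM in replicate 2 and 19.7% in replicate 1. Hlf-201, the full coding transcript of 5642 bases, had 276 counts in replicate 2 against 234 in replicate 1, a ratio of 1.41 (1.18 to 1.69). Hlf-203, annotated as not protein coding, had 321 counts in replicate 2 and 293 in replicate 1. Bhlhe41-201 held 85.4% of Bhlhe41 TPM in replicate 2 and 82.3% in replicate 1, and Bhlhe40-201 held 85.3% and 100% of Bhlhe40 TPM. Bhlhe41-202 had 26 counts in replicate 2 and 16 in replicate 1, and Bhlhe40-203 had 11 and 0. Nfil3 and Wee1 have 1 transcript each.

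Promoter windows from RefSeq (GRCm38.p6, 250 bases before to 50 after a start) were at hand for 7 of the 9 genes, 8 windows in all, with 2 for Tef. Both strands were searched for the E-box CACGTG, the E'-box CACGTT, the D-box TTANGTAA, the ROR element core TAGGTCA and the cAMP response element TGACGTCA; no pair of these hits overlapped. The E-box occurred in 4 of the 8 windows, those of Bhlhe41, Ciart and both Tef starts, and in 7.15% of all 32851 windows. The E'-box and the D-box occurred in none of the 8 windows, and in 4.68% and 2.32% of all windows. The ROR core occurred in the Nfil3 window, 12 bases before the RefSeq start and inside the first exon of Nfil3-201, and in 2.61% of all windows, and the cAMP response element in the Hlf window, 9 bases before the RefSeq start, and in 1.79%. None of these letters occurred in the windows of Dbp and Usp2. The Dbp window is set on a start 159 bases inside the first exon of Dbp-201, so 91 of its bases lie before that transcript, and the Usp2 window is that of the internal start. A match describes the letters and shows no binding.

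The E-box lay 138 bases before the downstream Tef start and 127 bases before the RefSeq upstream Tef start, a position inside the first exon of Tef-202. For Bhlhe41 it lay 153 bases before the RefSeq start, which is 138 bases inside the first exon of Bhlhe41-201, and so 15 bases before the start of Bhlhe41-201. For Ciart it lay at 116, 58 and 44 bases before the RefSeq start. The parts of 3 of these windows that lie outside the genes' exons are shown 5′ to 3′ on the gene's strand, with E-boxes in capitals, because the Tef-201 and Bhlhe41 RNAs were 2-fold apart by counts and Ciart holds the most copies. They are chr15:81811164-81811413 (plus), chr6:145865559-145865670 (minus) and chr3:95882252-95882478 (minus). A link between E-boxes and ratios was not tested. The RNAs with an E-box in their window had ratios of 2.48 (Bhlhe41), 2.32 (Tef-201), 1.45 (Ciart) and 0.892 (Tef-202). The Dbp window had none but holds only 91 bases before Dbp-201, so it cannot show whether an E-box lies further upstream.
Tef-201 promoter: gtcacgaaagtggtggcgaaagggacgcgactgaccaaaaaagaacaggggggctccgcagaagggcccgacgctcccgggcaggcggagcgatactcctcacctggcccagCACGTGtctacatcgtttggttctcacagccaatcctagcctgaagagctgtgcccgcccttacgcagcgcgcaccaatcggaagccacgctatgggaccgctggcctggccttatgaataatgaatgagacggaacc
Bhlhe41 promoter: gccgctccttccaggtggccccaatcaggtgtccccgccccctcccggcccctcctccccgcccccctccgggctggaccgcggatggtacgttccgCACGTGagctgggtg
Ciart promoter: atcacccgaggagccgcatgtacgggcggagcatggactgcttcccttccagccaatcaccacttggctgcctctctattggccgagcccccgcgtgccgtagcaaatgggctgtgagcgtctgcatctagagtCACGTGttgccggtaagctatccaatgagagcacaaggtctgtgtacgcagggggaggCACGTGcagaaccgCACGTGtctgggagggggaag

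The core clock genes differed in both directions. Of 16 core clock genes, 15 reached a mean count of 10, the minimum used for lists. Over all 17334 genes at that minimum, 3.61% were at least 2-fold higher in replicate 2 and 7.12% in replicate 1, with a median log2 ratio of -0.019. In the core clock 2 genes were 2-fold higher in replicate 2, 2 were 2-fold higher in replicate 1, and the median log2 ratio was 0.03. The 2 higher genes were the E-box-driven repressors Per1, at 73.1 TPM in replicate 2 and 32.58 TPM in replicate 1 (2.67-fold), and Per2, at 19.54 and 6.1 TPM (3.75-fold). The 2 genes higher in replicate 1 were the activators Arntl, which encodes BMAL1, at 3.76 TPM in replicate 2 and 12.06 TPM in replicate 1 (2.74-fold), and its partner Npas2, at 3.75 and 8.51 TPM (2.19-fold). The most abundant members were Nr1d1, which encodes REV-ERB alpha, at 306.37 TPM in replicate 2 and 188.84 TPM in replicate 1 (ratio 1.92), and the kinase gene Csnk1e, at 81.64 and 91.33 TPM (ratio 1.12). Dbp, Bhlhe41 and Wee1 were higher in the same library as Per1 and Per2, and Arntl and Npas2 were lower there. Nfil3, under 2-fold apart, had the sign of Arntl and Npas2. With 2 libraries each gene gives 1 ratio and must fall on a side, so a shared side shows no shared pattern. Its cause was not tested.

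Known PAR bZIP targets of liver, kidney or brain had smaller ratios than Dbp. Of 7 listed, 5 had enough counts, 1 was 2-fold higher in replicate 2, none in replicate 1, and the median log2 ratio was 0.40. That gene was the cytochrome P450 Cyp2a5, at 49.1 TPM in replicate 2 and 25.08 TPM in replicate 1 (ratio 2.29 by counts, and under 2-fold by TPM). Its near-identical relative Cyp2a4 can share reads with it, so the value is uncertain. The most abundant were Por, the electron donor of P450 enzymes, at 490.69 TPM in replicate 2 and 433.91 TPM in replicate 1, and Alas1, the first enzyme of haem synthesis, at 313.9 and 242.13 TPM.

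Among the C/EBP family, bZIP factors outside the clock, 3 of 6 genes were 2-fold higher in replicate 2 and none in replicate 1, with a median log2 ratio of 0.76. Cebpb stood at 714.35 TPM in replicate 2 and 261.53 TPM in replicate 1 (3.20-fold), Cebpd at 427.9 and 133.57 TPM (3.75-fold), and Cebpa at 261.46 and 130.72 TPM (2.34-fold). Each was above Dbp in level in both libraries. Among the Hes and Hey family, bHLH repressors related to the DEC proteins, 2 of the 7 genes with enough counts of 10 listed were 2-fold higher in replicate 2 and none in replicate 1, with a median log2 ratio of 0.72. These were Hes1, at 311.64 TPM in replicate 2 and 148.67 TPM in replicate 1 (2.43-fold), and Hes7, with 50 counts in replicate 2 and 13 in replicate 1 (4.61-fold). Hey1, the other abundant member, had 111.12 TPM in replicate 2 and 74.85 TPM in replicate 1 (ratio 1.67).

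Of 8 glucocorticoid-induced genes, 4 were 2-fold higher in replicate 2 and none in replicate 1, and the median log2 ratio of 1.21 was the highest of the 8 lists. Tsc22d3, which encodes GILZ, had 286.87 TPM in replicate 2 and 113.33 TPM in replicate 1 (2.98-fold), and Zbtb16 had 27.27 and 9.97 TPM (3.20-fold). Klf9 had 124.4 TPM in replicate 2 and 53.63 TPM in replicate 1 (2.71-fold), and Per1 is given above. Dusp1, a phosphatase and the most abundant member, had 334.04 TPM in replicate 2 and 206.63 TPM in replicate 1 (ratio 1.92). The ratio was above 1 for 7 of the 8 genes. Sgk1 went the other way, at 48.3 TPM in replicate 2 and 71.09 TPM in replicate 1 (ratio 0.784). Of 6 other genes rhythmic in many mouse organs, 2 were 2-fold higher in replicate 2 and none in replicate 1, Tsc22d3 and Tspan4, and the median log2 ratio was -0.13. Tspan4 had 139.24 TPM in replicate 2 and 80.79 TPM in replicate 1, 2.06-fold by counts and under 2-fold by TPM. Cirbp, the cold-inducible RNA-binding protein gene, had 150.23 TPM in replicate 2 and 177.16 TPM in replicate 1 (ratio 0.912).

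Genes of entry into mitosis mostly did not share the sign of Wee1, with 3 of 10 above a ratio of 1. None of the 10 was 2-fold higher in replicate 2, 1 was 2-fold higher in replicate 1, and the median log2 ratio was -0.25. That gene, the cyclin Ccnb1, had 0.83 TPM in replicate 2 and 2.85 TPM in replicate 1 (2.54-fold). The most abundant, the phosphatase Cdc25b, had 32.11 TPM in replicate 2 and 34.7 TPM in replicate 1, and Pkmyt1, a kinase related to Wee1 that also acts on CDK1, had 21.27 and 17.48 TPM (ratio 1.42). None of 5 deubiquitinases related to Usp2 was 2-fold apart in either direction, and the median log2 ratio was 0.14. Usp50 had 115.65 TPM in replicate 2 and 87.46 TPM in replicate 1, and Usp4 had 55.45 and 67.3 TPM.

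**Figure D5:**
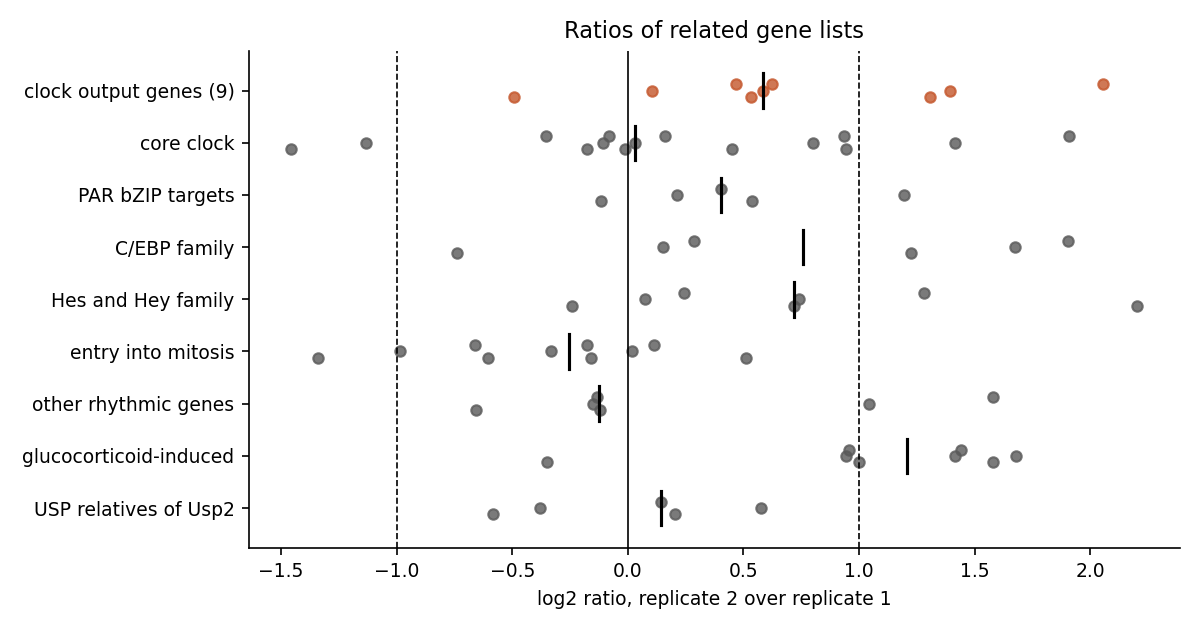
Log2 ratio of replicate 2 over replicate 1 for the 9 clock output genes and for 8 lists, 1 point per gene with a mean count of at least 10, vertical bars at the medians and dashed lines at 2-fold. The medians run highest for the glucocorticoid-induced genes (1.21) and lowest for the genes of entry into mitosis (-0.25), with the 9 genes at 0.59; Per1 and Tsc22d3 stand in 2 lists each.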

How the data were processed

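Per the labels, the libraries are stranded, of polyadenylated RNA over 200 nt with spike-ins added, and were read from both ends for 76 nt. Per the deposited file lists, mapping was to mm10 (GRCm38) and quantification with GENCODE M4. The aligner, the quantifier, the level of the TPM intervals and any use of strand in counting are unstated there (not given in the sources used here). As deposited, the expected counts are estimated fragments per gene or transcript, not normalized. TPM, as deposited, sums to the same total in both libraries, and the deposited FPKM values are per length and library total. The authors also deposited each transcript's percent of its gene's TPM.

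Expected counts were rounded. Symbols, exons and starts came from GENCODE M21 on GRCm38; 42462 of 43346 gene identifiers matched, holding 99.9% of counts. The 97 spike-in rows (461067 counts in replicate 2 and 704282 in replicate 1) and 26248 rows that name no gene (2 and 0 counts) stayed out. Ratios used TMM factors (edgeR 4.0.16 in R 4.3.3) with exact Clopper-Pearson 95% intervals; TPM and FPKM ratios used a pseudocount of 0.1 in the alternatives. With 1 group no test was run. Called means 2-fold or more with a mean count of at least 50, or 10 in lists. All 9 members were named, with transcripts of at least 5% in a library, overlapping genes and, of each list, the genes 2-fold apart and the 2 of highest mean TPM. Sgk1 was named as well, as the glucocorticoid-induced gene with a ratio below 1. The labels number the libraries as biological replicates from separate tissue samples but do not say that these came from separate animals. The spread may hold both technical differences and differences between tissue samples, which were not measured apart. Ratio and interval code was tested on simulated data. Members, lists and rules were chosen with earlier results of these data known. Alternatives were library totals, DESeq2 1.42.0 size factors, TPM, FPKM, other count minimums and thresholds, and each library alone. Contigs and junctions on mm9 were not used here. Figures used matplotlib 3.10.9; other steps used Python 3.11.15, pandas 2.3.3, numpy 2.4.6 and scipy 1.17.1.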

Additional observations from a re-analysis of the deposited data

How the results depend on the processing

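No paired analysis was possible because the series holds 1 group. With library totals in place of TMM scaling, the ratio of Bhlhe40 turned to 0.978; the other 8 genes kept their side of 1 and of 2-fold under that scaling, DESeq2 size factors and TMM factors from well-counted genes. Hlf passed 2-fold by TPM (2.09) and FPKM (2.23), each with a pseudocount of 0.1. The median log2 ratio of all genes shifted to -0.14 with library totals, -0.21 with TPM and -0.11 with FPKM, and changes by those scales stand relative to it. Genes higher in replicate 2 made up 33.1% of those 2-fold apart with TMM scaling, 22.3% with library totals and 19.1% with TPM.

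With a threshold of 1.5-fold 5 of the 9 genes were higher in replicate 2, and with 3-fold 1 was. None was higher in replicate 1 under either. The shares of all genes at 1.5-fold and 3-fold were not counted, so these member counts have no background to stand against. The lowest ratio among the 5, that of Usp2, was higher than that of 91.5% of the background genes. Over all genes, a mean count of at least 10 gave 626 genes 2-fold higher in replicate 2 and 1235 in replicate 1, and no minimum gave 2116 and 3475, as more genes entered. Of 112 list counts recomputed, 9 moved by over 1.5 times. The short transcript Usp2-207 held 29.3% of Usp2 by TPM and 8.12% by counts, as a mean of both libraries. Counting error alone spans a ratio of 4.23 to 12.7 for Hlf-206 and 2.47 to 9.25 for Hes7.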

Other observations

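Genes on the opposite strand overlap 7 of the 9 clock output genes, and no source used here states whether the deposited counting used strand. Sphk2, a sphingosine kinase gene, shares 737 bases with Dbp. It had 5204 counts in replicate 2 against 5509 in replicate 1, a ratio of 1.13 beside 4.16 for Dbp. C920021L13Rik spans the whole of Ciart and had 40 counts in replicate 2 and 38 in replicate 1. The antisense gene 1600010M07Rik spans Wee1 and had 16 counts in replicate 2 and 21 in replicate 1, beside 283 and 129 for Wee1. Gm17597 overlaps Tef by 193 bases and had 25 counts in replicate 2 and 32 in replicate 1, and 0610040F04Rik overlaps Bhlhe40 by 306 bases and had 0 counts in both. The protein-coding Gm49380 shares 28607 bases with Usp2, its whole span, Gm39325 shares 4448 bases with Usp2, and Gm43909 shares 1876 bases with Bhlhe41. No counts were at hand for Gm49380, Gm39325 and Gm43909.

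Among transcripts kept in the later annotation, no pair of the 9 genes shares a run as long as a read. The 4 Dbp transcripts missing from it and runs on opposite strands were not compared. The longest identical run between transcripts was 19 bases, between Dbp and Usp2, and the longest within the PAR bZIP genes was 18 bases, between Tef and Hlf, against reads of 76 nt.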
